A study of Mus musculus with 9 samples.

Results

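The nuclear genes for the subunits of the oxidative phosphorylation machinery were followed through RNA sequencing libraries of mouse spleen. Members were the protein-coding genes of the series count table whose symbols begin with Ndufa, Ndufb, Ndufc, Ndufs, Ndufv, Uqcr, Cox4i, Cox5, Cox6, Cox7, Cox8 or Atp5, together with Sdha, Sdhb, Sdhc, Sdhd and Cyc1, and without Cox6a2. This gave 94 gene identifiers, with 93 symbols, of 21965 counted. By complex they fell into 36 for complex I, 4 for complex II, 9 for complex III, 17 for complex IV and 17 for complex V, with 8 assembly factors of complex I and 3 others. Atp5o carried 2 identifiers, of which the second, a readthrough gene, had 0 counts. Of the 94 identifiers, 69 passed the filter on low counts and were tested, and 25 did not, among them all 8 assembly factors.

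Spleens came from 16-week-old mice in 3 groups of 3. NZB x NZW F1 hybrids are abbreviated BWF1, and their females are the lupus-prone group of the series title, while BWF1 males and BALB/c females are its non-prone groups. No further allele, transgene or treatment is given for any group. With no BALB/c males, the sexes can be compared only within the cross, and BWF1 males and BALB/c females differ in both sex and strain. The title and design text give whole splenocytes, but each sample is labelled as macrophages from a CD11b and F4/80 sort. Both gate genes were detected at low levels. Itgam, the gene of CD11b, stood at 5.52 ± 0.912 CPM (counts divided by a scaled library size; SD, n = 3) in BALB/c females, against 0.538 ± 0.931 in the females and 4.87 ± 2.47 in the males of the cross. Adgre1, the gene of F4/80, stood at 7.27 ± 1.78, 14.8 ± 2.68 and 15.3 ± 4.96 CPM in that order, and the macrophage gene Csf1r at 47.4 ± 6.11, 40.1 ± 8.80 and 125 ± 35.3. The B cell gene Cd79a was higher in each group, at 444 ± 37.2, 295 ± 38.7 and 402 ± 74.2 CPM, which is not the marker pattern of a pure macrophage sort.

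Complexes I to IV form the respiratory chain of the inner mitochondrial membrane. Complex I takes electrons from NADH and complex II, also the succinate dehydrogenase of the citric acid cycle, from succinate. Complex III passes them to cytochrome c and complex IV to oxygen, and complexes I, III and IV pump protons. Complex V, the ATP synthase, uses the proton gradient to make ATP. A few subunits of complexes I, III, IV and V are encoded in mitochondrial DNA, but 0 genes of the mitochondrial chromosome were among those counted, so only the nuclear part was measured. In immune cells of the spleen, respiration is known to change with activation and differentiation.

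Total gene counts ranged from 458608 to 4305003 per library, and the members together held 1269 to 13470 counts. Gene counts were a small part of all that HTSeq tallied: 1.29% to 2.05% in BWF1 libraries and 2.14% to 2.82% in BALB/c libraries. Alignments that were not unique made up 55.9% to 61.5%, and those in no annotated feature 37.2% to 42.1%. The part of this difference in the comparisons with BALB/c was not tested, and it cannot be told apart from strain. The median count of a tested member was 14 to 37 in 8 libraries and 136 in BWF1 male 3, the deepest. One gene, Lars2, took between 42.3% and 76.6% of each library. The largest portion was in BWF1 male 1, which also had the lowest scaling factor (0.530, others 0.934 to 1.40) and stood apart in the members' levels. For several results that rest on it, values without it are given as well. Markers of other cells differed between groups: the natural killer cell list (8 of 8 counted) summed to 82.1 to 88.7 CPM in BWF1 females, 279 to 285 in BWF1 males and 113 to 151 in BALB/c females. The list of macrophage and gate markers (10 of 10) summed to 208 to 234, 417 to 635 and 319 to 400 CPM in the same order. The erythroid list (14 of 15) summed to 866 to 2554, 216 to 1391 and 1513 to 4469 CPM, and the B cell list (10 of 10) to 2339 to 2526, 2371 to 3018 and 3339 to 3375 CPM. The part of cell composition in the values below was not tested, and in such mixed libraries fewer cells of a type and less RNA per cell cannot be told apart.

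Promoters are shown first because several regulators of respiration genes are known to act there: NRF1, the ETS family factor GABPA and YY1. RefSeq windows of 300 bases (GRCm38.p6), from 250 bases before to 50 after a start, were matched to 76 member genes by symbol or synonym. Matches on either strand were sought for GCGCATGCG (NRF1), CCGGAAGT (ETS family) and AAGATGGCG (YY1), which do not contain each other. The NRF1 letters were present for 10 of 76 members (13.2%), against 1.95% of all 27025 genes with a window and 4.69% of the 6181 tested genes with one. The YY1 letters were found for 8 members (10.5%), against 1.64% and 4.50%. The ETS letters were found for 5 members (6.58%), against 4.31% of all genes but 10.8% of tested genes. The 3 member shares are over tested and untested members alike, so the shares of tested genes beside them are of an unlike set. All 5 members with the ETS letters were tested. These shares are a description, with no test, and a match is not a bound site.

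The stretches below belong to members whose levels are described after them: Cox6a1 and Cox8a, both among the highest per length, Uqcrh, the complex III member of lowest p between the sexes, Uqcr11, which held 2 different motifs, and Atp5j2, the complex V member of lowest p against BALB/c. Capitals mark a motif match, and each reads 5′ to 3′ on the gene's strand. Cox6a1 lies on the minus strand at chr5:115348949-115349180, with the NRF1 letters 162 bases before the start. The NRF1 letters in reverse overlap these from the next base on, and their last base is not capitalised. Cox8a (minus strand, chr19:7217607-7217682) and Uqcrh (minus strand, chr4:116075061-116075141) held the ETS letters in reverse, 6 and 11 bases before it. The Cox8a window held them in reverse again 31 bases after the start, beyond the printed stretch. Uqcr11 (minus strand, chr10:80406812-80406947) held the ETS letters and, nearer the start, the NRF1 letters in reverse. Atp5j2 (minus strand, chr5:145191502-145191526) held the YY1 letters after the start.
Cox6a1: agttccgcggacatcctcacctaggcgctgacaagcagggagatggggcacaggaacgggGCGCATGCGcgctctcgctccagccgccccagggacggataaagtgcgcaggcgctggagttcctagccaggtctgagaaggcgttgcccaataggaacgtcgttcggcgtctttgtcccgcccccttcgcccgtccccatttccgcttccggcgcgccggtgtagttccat
Cox8a: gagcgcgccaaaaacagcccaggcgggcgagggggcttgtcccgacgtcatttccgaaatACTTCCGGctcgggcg
Uqcrh: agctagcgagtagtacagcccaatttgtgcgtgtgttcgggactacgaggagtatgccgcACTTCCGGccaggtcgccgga
Uqcr11: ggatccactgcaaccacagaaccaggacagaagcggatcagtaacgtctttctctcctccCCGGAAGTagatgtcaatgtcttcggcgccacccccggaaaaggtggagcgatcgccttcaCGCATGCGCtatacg
Atp5j2: aggacttcAAGATGGCGtcactcgg
The median level of members with the NRF1 letters was 14.2 RPKM (scaled counts per kilobase of exon, from CPM), and 13.4 RPKM without them. Members with the YY1 letters had a median of 8.93 RPKM, and those without 13.9. The ETS letters went with a median of 32.3 RPKM, against 12.6 without, but only 5 members carried them. Uqcr11, a small subunit of complex III, read 8.62, 17.7 and 13.9 CPM in BALB/c females, 8.82, 6.45 and 20.5 in the females and 11.8, 10.3 and 8.95 in the males of the cross, and all 3 groups overlapped.

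Per length, the most abundant members were core ATP synthase and cytochrome c oxidase genes. Atp5a1, the alpha subunit of the catalytic head of the ATP synthase (ENSMUSG00000025428, mm10), had a mean over the groups of 84.9 RPKM, and Atp5b, the beta subunit that carries the catalytic sites (ENSMUSG00000025393), 67.8 RPKM. Between them stood 3 genes of complex IV: Cox8a (80.1 RPKM), Cox4i1 (76.1 RPKM), which encodes the largest nuclear subunit, and Cox6a1 (74.7 RPKM). By library, Atp5a1 read 77.3, 73.4 and 80.9 RPKM in BALB/c females, 83.0, 95.2 and 78.6 in BWF1 females, and 106, 84.1 and 85.7 in their males. Cox8a read 59.2, 96.6 and 102 RPKM in BALB/c females, 92.6, 65.2 and 63.0 in BWF1 females, and 76.0, 76.2 and 89.5 in the males. These ranges overlap, so the order among neighbours of this top group is within the spread of the libraries. The order also depends on the length used: per length of the shortest principal transcript, an alternative added after seeing the data, Cox4i1 came first (158 RPKM), followed by Atp5b (150), Atp5e (120), Atp5a1 (108) and Uqcrh (103).

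**Figure D1:**
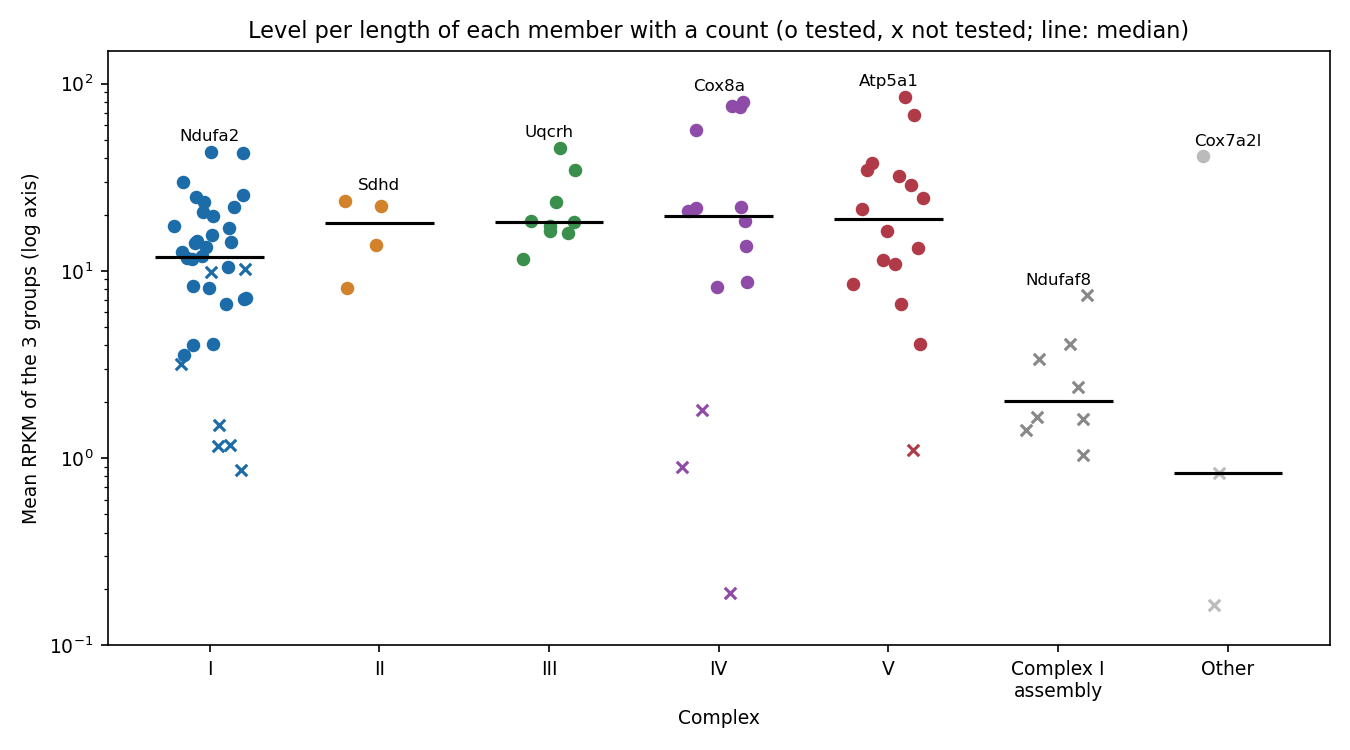
Mean RPKM of the 3 groups (log axis) for each member with a count, by complex. Circles are tested members, crosses members that were not tested, black lines medians, and the member highest in each class is named. Atp5a1 is highest at 84.9 RPKM, and the assembly factors lie lower than most subunits.

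Per length of all exons, the medians over members with a count were 17.997 RPKM in complex II, 18.3 in complex III, 19.6 in complex IV and 18.9 in complex V. Per length of the shortest principal transcript they lay further apart, at 25.4, 26.7, 38.9 and 39.8 RPKM in that order. The 36 members of complex I had the lowest median of the 5 complexes by both lengths, 11.9 RPKM (from 0.866 to 43.1) and 19.5 RPKM. The 8 assembly factors had 27 to 65 counts each over the 9 libraries together. Alignments that were not unique were set aside in the counting, and their part in these levels was not tested: 19 members had over 25% of their 50-base words in another annotated gene and a median of 8.52 RPKM, whereas 50 members with under 1% shared had a median of 14.9 RPKM. All words of the c subunit gene Atp5g2 were shared, and 84.9% of those of Atp5l.

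The isoforms of complex IV were those known from most tissues, and the lung, muscle and testis forms of the first pairs below made up at most 5.71% of a pair. Over the 9 libraries, Cox4i1 had 1338 counts and its lung form Cox4i2 had 4, or 0.298% of the pair (exact 95% interval 0.0813% to 0.761%, counting error only). Cox8a had 612 counts and Cox8b and Cox8c had 0, which allows up to 0.601% each by the same interval. Cox7b had 331 and Cox7b2 had 0, and Cox6b1 had 490 against 19 for Cox6b2, its testis form (3.73%, 2.26% to 5.77%). Cox6a1 had 644 counts against 39 for the muscle form Cox6a2 (5.71%, 4.09% to 7.72%), which the membership rule leaves out. Ndufa4, a complex IV subunit despite its name, had 353 counts and its paralog Ndufa4l2 had 1.

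In the Cox7a family, Cox7a2l, which takes part in joining complexes III and IV, had 674 counts and Cox7a2 had 232. The muscle form Cox7a1 had 6 counts, 1, 4 and 1 in the BALB/c females and 0 in all 6 BWF1 libraries. Its pooled level in BALB/c females of 1.53 CPM was 3.21-fold the floor of BWF1 males, set at 3 counts over the group. The error of the BALB/c counts is not in that ratio. The ratio rests on the deep library BWF1 male 3: without it the floor is 2.02 CPM, above the BALB/c level, and no difference was detectable. Without BALB/c female 2 only 2 counts were left in BALB/c females. The floor of BWF1 females, 1.92 CPM, lies above that level, so no difference from them was detectable at this depth. The 3 genes for the identical c subunit of the ATP synthase ring were all present: Atp5g3 held 57.4% of their counts, Atp5g1 24.7% and Atp5g2 17.99%. These shares are of counts, not scaled to length. Words shared with another annotated gene made up 0% of Atp5g3, 66% of Atp5g1 and 100% of Atp5g2. Alignments that were not unique were set aside, and their part in this split was not tested. Of the other ATP synthase genes, the inhibitor, listed as Atpif1 and so outside the membership rule, stood at 28.9 ± 2.72 CPM in BALB/c females, 32.2 ± 9.67 in BWF1 males and 42.5 ± 17.1 in BWF1 females (n = 3).

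The summed level of all members was close between groups. BALB/c females gave 2647, 2539 and 2855 CPM, BWF1 females 2933, 2759 and 2606, and BWF1 males 3470, 2742 and 2805. BWF1 male 1 was the highest, and the other 8 libraries lay within 1.16-fold of each other. The group means of 2680 ± 160, 2766 ± 164 and 3005 ± 403 CPM in that order (SD, n = 3) differed by less than the largest of these spreads.

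**Figure D2:**
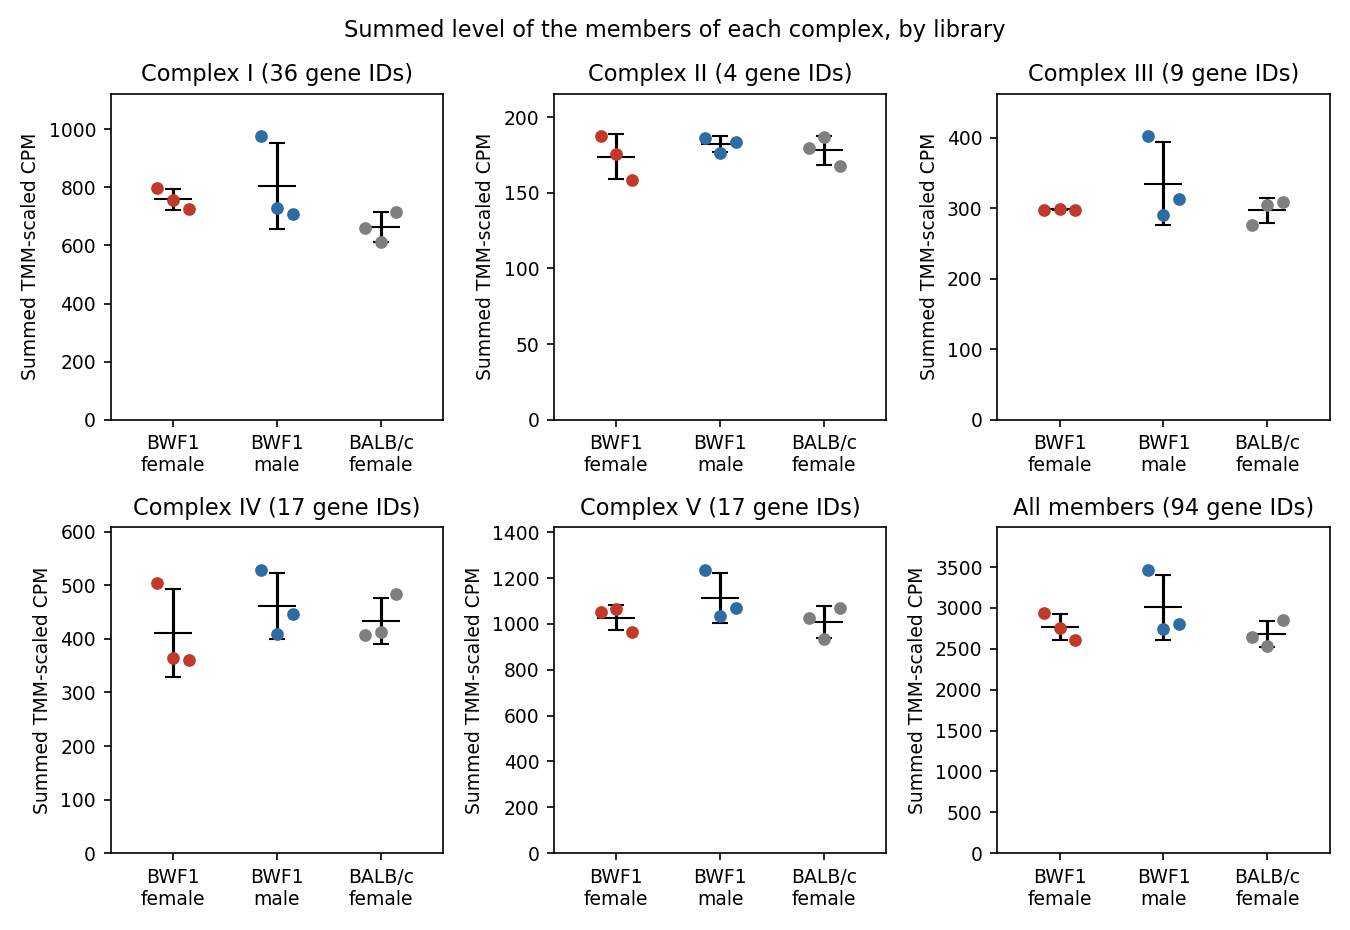
Summed TMM-scaled CPM of the members of each complex and of all members, one point per library (bars: mean ± SD, n = 3, axes from 0). All members together lie between 2539 and 2933 CPM in 8 libraries and at 3470 in BWF1 male 1, which is also the highest for complexes I, III, IV and V.

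The balance between the complexes was narrow as well, with 1 exception chosen after its values were seen. Complex V held 35.7% to 38.8% of the members' CPM in each library, complex IV 13.2% to 17.2%, complex III 10.2% to 12.01% and complex II 5.37% to 7.35%, and in these 4 the BWF1 and BALB/c libraries overlapped. Complex I held 24.95%, 24.1% and 25.1% in BALB/c females, against 27.1%, 27.4% and 27.8% in BWF1 females and 28.2%, 26.6% and 25.3% in the males. All 6 BWF1 libraries thus lay above all 3 BALB/c libraries. Neither part of complex I was apart in this way alone. The accessory members held as little as 17.5% in BWF1 males and as much as 17.7% in BALB/c females. For the core members these values were 7.74% and 8.33%. The group values in that order were 24.7% ± 0.503, 27.4% ± 0.343 and 26.7% ± 1.44 (SD, n = 3), and a share within a library does not depend on the scaling.

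Counting error is of a similar size: the exact 95% interval was 24.5% to 26.02% for the lowest BWF1 library, male 3, and 23.5% to 26.7% for the highest BALB/c library. No p is given for a sum over chosen members. Leaving out any 1 of 34 of the 36 complex I members kept the 2 sets of libraries apart, and leaving out either of the other two let them overlap. File names carry the tag ORIG or RL, of unstated meaning, and all BALB/c libraries are ORIG. The ORIG libraries of the cross, BWF1 female 2 (27.4%) and BWF1 male 2 (26.6%), were also above the BALB/c range. Without BWF1 male 1, males exceeded BALB/c females by 1.23 percentage points, against 1.96 with it.

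**Figure D3:**
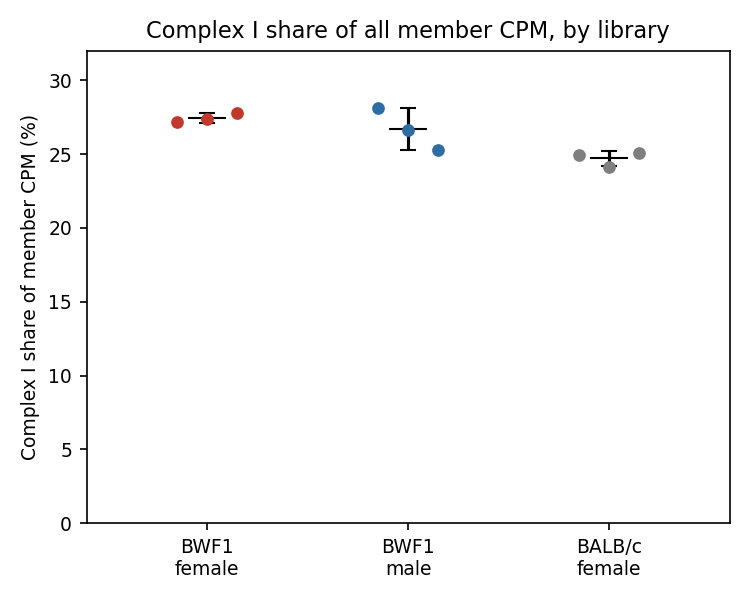
Complex I share of the CPM of all members in percent, one point per library (bars: mean ± SD, n = 3, axis from 0). The 3 BALB/c libraries lie at 24.1% to 25.1% and the 6 BWF1 libraries at 25.3% to 28.2%.

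The sexes were compared within the cross, BWF1 females against BWF1 males, to ask whether respiration genes differ between the lupus-prone sex and its male counterpart. No tested member was called at an adjusted p under 0.05 by edgeR's quasi-likelihood test, higher or lower, where 0.959% and 1.23% of all 7719 tested genes were. DESeq2 also called 0. At an unadjusted p under 0.05 there were 4 of 69 members by edgeR (5.80%, against 16.4% of all genes) and 0 by DESeq2. Without BWF1 male 1, edgeR gave 1. The libraries did not overlap for 0 members with females higher (9.04% of all genes) and for 6 with females lower (8.70%, against 9.68% of all genes). The members' median log2 fold change was -0.06, with 31 above and 38 below 0, and 0.051 without BWF1 male 1. That of all genes was 0.00.

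Cox6a1, a small subunit of complex IV, had the lowest p. BWF1 females read 57.3, 27.4 and 28.7 CPM and the males 100, 42.0 and 62.7, beside 29.5, 53.9 and 70.4 in BALB/c females. The sexes overlapped, and the log2 fold change was -0.84 (SE 0.32, edgeR adjusted p = 0.171, n = 3). With no filter on low counts it was called, at an edgeR adjusted p of 0.0199, in a fit whose share of all genes called is not given here. Without BWF1 male 1 it was -0.52 (adjusted p = 0.440), and without BWF1 female 1 it was -1.26. Uqcrh, the hinge subunit of complex III, read 39.7, 51.6 and 45.2 CPM in females and 100, 59.5 and 53.5 in males. All females lay below all males, at a log2 fold change of -0.60 (SE 0.23, adjusted p = 0.182). Without BWF1 male 1 it was -0.28.

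Sdha, the catalytic flavoprotein of complex II, had the smallest standard error of these. It read 75.0, 87.1 and 86.2 CPM in females and 98.1, 102 and 102 in males, which did not overlap. Its log2 fold change was -0.28 (SE 0.17, adjusted p = 0.428). Atp5c1, the gamma subunit that turns within the ATP synthase head, read 59.5, 48.4 and 55.4 CPM in females and 76.5, 67.7 and 69.3 in males, again without overlap (-0.38, SE 0.19, adjusted p = 0.311). Ndufa2, an accessory subunit of complex I, overlapped between the sexes (-0.71, SE 0.34, adjusted p = 0.298) and read -0.36 without BWF1 male 1.

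**Figure D4:**
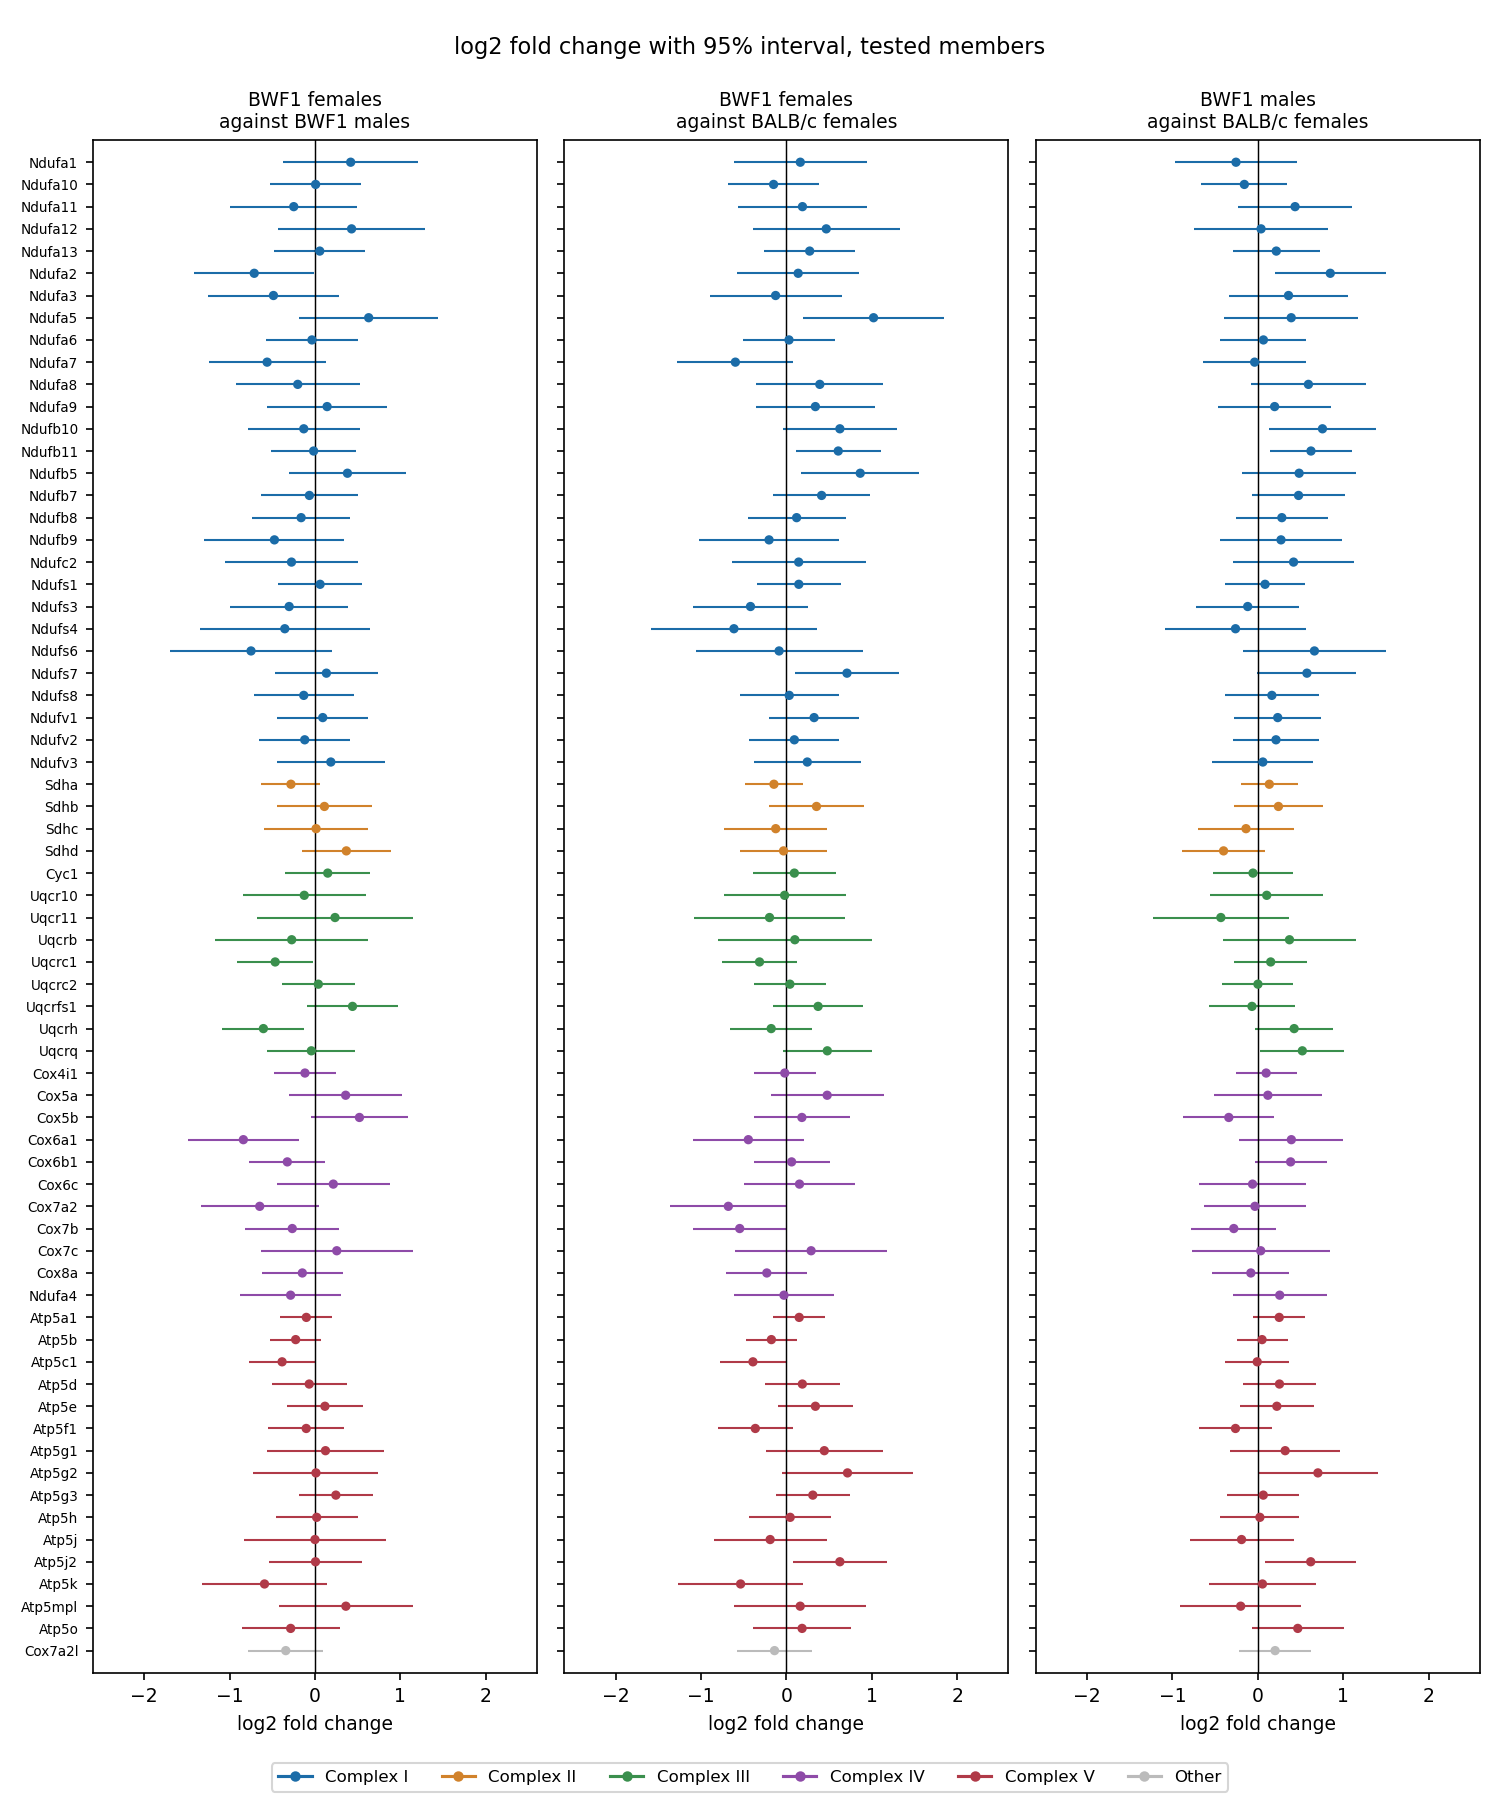
Fitted log2 fold change (points) with 95% interval (lines) of 68 of the 69 tested members, coloured by complex, in the 3 comparisons (first group minus second). No member passed the adjusted threshold. Over all 29 tested complex I members, 22 in BWF1 females and 24 in BWF1 males were above 0 against BALB/c. With library size as the only scaling, 11 and 6 were above 0, but 22 and 24 were above the median of all genes.

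The females of the cross were then set against the BALB/c females, of the same sex and age. Again 0 members were called by edgeR, against 1.79% of all genes higher and 2.03% lower, and 0 by DESeq2. An unadjusted p under 0.05 was reached by 8 members with edgeR (11.6%, against 16.9% of all genes) and 4 with DESeq2. Without BALB/c female 2, edgeR gave 2, and without BWF1 female 1, BWF1 male 2 or BWF1 male 3 it gave 5. BWF1 females lay wholly above BALB/c females for 4 members (5.80%, all genes 10.3%) and wholly below for 5 (7.25%, all genes 10.9%). The median log2 fold change was 0.12, with 43 of 69 above 0, beside 0.00 for all genes.

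By complex, 22 of 29 tested complex I members were above 0, with a median of 0.16. With library size as the only scaling, which moved the median of all genes to -0.29, 11 were above 0 but 22 were above that median. With the file-name tag as a term, 17 were above 0. Ndufb5, an accessory subunit of its membrane arm, had the lowest p: 19.8, 25.8 and 30.8 CPM in BWF1 females against 10.8, 11.2 and 20.8 in BALB/c females. The groups overlapped, with a fitted log2 difference of 0.87 (SE 0.34, adjusted p = 0.172 by edgeR). Its exons share 616 bases with Mrpl47, a neighbour whose reads could not be told apart if counting ignored strand. Ndufb11, another membrane arm subunit, lay wholly above in BWF1 females (57.3, 40.3 and 32.9 CPM) compared with BALB/c females (29.5, 24.3 and 31.7), at 0.61 (SE 0.24, adjusted p = 0.187). Ndufa5, another accessory subunit of complex I, also lay wholly above, at 1.02 (SE 0.40, adjusted p = 0.179 by edgeR). Both were chosen after their values were seen. They were the 2 complex I members wholly above, and 1 lay wholly below.

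In the other complexes, Atp5j2, the f subunit of the ATP synthase membrane part, read 33.1, 58.1 and 30.8 CPM in BWF1 females and 35.2, 24.3 and 19.8 in BALB/c females, which overlap (0.63, SE 0.27, adjusted p = 0.225). Without BWF1 female 2, its highest library, the value was 0.27. Uqcrq, a small complex III subunit, read 35.3, 27.4 and 34.9 CPM against 23.0, 21.0 and 25.8, without overlap (0.48, SE 0.25, adjusted p = 0.343). Cox7b, of complex IV, lay the other way, at 22.1, 22.6 and 20.5 CPM against 26.6, 31.5 and 37.7, also without overlap (-0.55, SE 0.26, adjusted p = 0.292). Sdhb, the iron-sulfur subunit of complex II, overlapped (0.35, SE 0.27, adjusted p = 0.547), and its value was 0.035 without BWF1 female 1, 0.20 without BALB/c female 1, 0.54 without BWF1 female 2 and 0.070 with the file-name tag as a term. Values on both sides of 0 thus occurred outside complex I, and also within it, where 7 of 29 were below 0. Complex V had 10 of 15 above 0 and a median of 0.16, the same as complex I. The medians of complexes II, III and IV were -0.08, 0.04 and -0.02.

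The third comparison set BWF1 males against BALB/c females, the 2 groups not prone to lupus. It shares its samples with the other comparisons, so its values are not independent of theirs. Once more edgeR and DESeq2 called 0 members, against 1.67% of all genes higher and 1.85% lower by edgeR. Unadjusted p was under 0.05 for 6 members with edgeR (8.70%, all genes 16.3%) and 3 with DESeq2, but for 0 without BALB/c female 2 and 2 without BWF1 male 1. Males lay wholly above for 9 members (13.0%, all genes 11.6%) and wholly below for 1 (1.45%, all genes 11.9%). The median log2 fold change was 0.16, or 0.08 without BWF1 male 1, with 50 of 69 above 0 and 0.00 for all genes.

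Complex I again leaned above 0, with 24 of 29 members and a median of 0.27. With library size alone only 6 were above 0, while 24 exceeded the all-gene median of -0.44. In complex V, 11 of 15 were above 0 in the main fit, with a median of 0.06. Ndufa2 had the lowest p, with 51.0, 30.8 and 22.9 CPM in males against 16.5, 14.5 and 24.8, at 0.85 (SE 0.32, edgeR adjusted p = 0.154). BWF1 male 1 was the highest, and without it the value was 0.50. Atp5j2 (0.62, SE 0.26, edgeR adjusted p = 0.214) overlapped between the groups. Uqcrq (0.52, SE 0.24, edgeR adjusted p = 0.268) did not, and read 39.2, 26.7 and 34.8 CPM in males. Without BWF1 male 1 the values were 0.53 for Atp5j2 and 0.44 for Uqcrq.

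Cox6b1, a complex IV subunit on the side facing the intermembrane space, read 43.2, 50.2 and 46.2 CPM in males against 38.8, 30.9 and 37.7. The groups did not overlap (0.38, SE 0.20, adjusted p = 0.365), and the value was -0.05 with library size alone, which is 0.39 above the median of all genes there. On the same scaling Uqcrq read 0.059, or 0.50 above that median. Sdhd, a membrane anchor of complex II, was the member wholly below, at 29.4, 18.5 and 25.4 CPM against 30.9, 34.2 and 30.7. Its log2 fold change was -0.40 (SE 0.24, edgeR adjusted p = 0.433), -0.25 without BWF1 male 2 and -0.50 without BWF1 male 1.

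An untested member differed most in kind, and was chosen after its values were seen. Ndufs5, an accessory subunit of complex I (ENSMUSG00000028648, mm10 chromosome 4, 123712710 to 123718202, minus strand), had 1, 6 and 5 counts in the BALB/c females, 0, 0 and 1 in BWF1 females and 0 in each of the 3 BWF1 males, the deepest library among them. Its pooled level of 3.06 CPM in BALB/c females was 6.41-fold the floor of BWF1 males, set at 3 counts over the group (0.477 CPM). The error of the 12 BALB/c counts is not in that ratio. Without BWF1 male 3 the floor rises to 2.02 CPM and the ratio drops to 1.51-fold. Of its 50-base words, 41.2% also occur in 1 other annotated gene, a pseudogene. It did not pass the filter, and without a filter edgeR called it lower in BWF1 males than in BALB/c females (adjusted p = 0.00479). The share of all genes called in that fit is not given here.

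How small a change could have been seen is given by the intervals. The median standard error of a member's log2 fold change was 0.28, 0.28 and 0.26 in the 3 comparisons, near the 0.29, 0.29 and 0.27 of all genes. The 95% interval lay within a log2 fold change of 1 either way for 48, 45 and 49 of the 69 members, and within 2 for all 69. Abundant members were measured more closely, with a standard error of 0.15 in each comparison for Atp5a1 and for Atp5b. The median within-group SD of log2 CPM was 0.285 for members and 0.279 for all tested genes, so the members were about as variable between replicates as other genes.

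Genes of related mitochondrial functions, glycolysis and, outside metabolism, the spliceosome were read from companion lists. Of 17 tested other assembly factors, 10 electron carriers and nucleotide exchangers, 9 genes of mitochondrial DNA maintenance and expression, 10 regulators of respiration genes, 17 genes of the citric acid cycle, 8 of inner membrane organisation, 8 mitochondrial antioxidant enzymes, 14 of glycolysis and 19 spliceosomal proteins, edgeR called 0 in each comparison, with 0 to 3 per list at an unadjusted p under 0.05. Over these 9 lists together that was 8, 15 and 10 of 112 genes in the 3 comparisons (7.14%, 13.4% and 8.93%), beside 16.4%, 16.9% and 16.3% of all genes. For the citric acid cycle, which feeds the chain, 2 of 17 were above 0 in females against males (median -0.21), 3 of 17 in BWF1 females against BALB/c females (-0.11) and 8 of 17 in BWF1 males against BALB/c females (-0.01, or 0.05 without BWF1 male 1). Its members of lowest p were Suclg1, Fh1 and Idh2 in that order of comparisons (edgeR adjusted p = 0.172, 0.119 and 0.300).

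In these lists, the genes of lowest p in each comparison had edgeR adjusted p from 0.0600 to 0.594. Timmdc1, an assembly factor of complex I, read 13.5 ± 0.770 CPM in BWF1 females, wholly above the 6.07 ± 1.61 of BALB/c females (log2 difference 1.17, SE 0.42, edgeR adjusted p = 0.136, n = 3). Slc25a5, an exchanger of ADP and ATP across the inner membrane, read 81.9 ± 1.92 CPM in BWF1 females, wholly below both BWF1 males (105 ± 6.51) and BALB/c females (111 ± 8.92), at adjusted p = 0.258 and 0.146 by edgeR. Polg2, the accessory subunit of the mitochondrial DNA polymerase, read 4.90 ± 2.90 CPM in BWF1 males, wholly below the 13.2 ± 5.34 of BALB/c females (-1.52, SE 0.45, edgeR adjusted p = 0.0600). Ppargc1b, a coactivator of respiration genes, read 12.5 ± 5.37 CPM in BWF1 females and 4.72 ± 2.39 in BWF1 males, without overlap (1.19, SE 0.48, edgeR adjusted p = 0.198). None of these passed the threshold.

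The remaining genes of lowest p are given by their log2 difference alone. In BWF1 females against BWF1 males they were Cox15, which makes the heme A of complex IV (0.80), the mitochondrial RNA polymerase Polrmt (-0.59), the inner membrane fusion protein Opa1 (0.56), the mitochondrial thioredoxin Txn2 (-0.48), the glycolytic aldolase Aldoa (-0.35) and Snrpa, a U1 snRNP protein (-0.58). In BWF1 females against BALB/c females they were the mitochondrial DNA exonuclease Mgme1 (1.04), the transcription factor Tfeb (0.52), Opa1 (0.26), the lipid peroxidase Gpx4 (-0.57), the phosphofructokinase Pfkp (0.48) and the splicing factor Sf3b2 (0.40). In BWF1 males against BALB/c females they were Timmdc1 (0.87), the pyrimidine synthesis enzyme Dhodh (0.93), Tfeb (0.61), Immt of the cristae junctions (-0.32), the mitochondrial thioredoxin reductase Txnrd2 (-0.66), the hexokinase Hk2 (0.85) and Sf3b1 (-0.42). Their signs were mixed in each comparison.

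Among 14 tested genes of mitochondrial protein import, 1 was called. Timm23, the channel of the inner membrane translocase, read 4.31, 2.63 and 3.96 CPM in BALB/c females, 7.85, 11.3 and 6.45 in BWF1 males and 22.1, 12.9 and 30.8 in BWF1 females. The 3 groups did not overlap. BWF1 females exceeded BALB/c females, with a fitted log2 difference of 2.56 (SE 0.46, adjusted p = 0.00118 by edgeR). Against BWF1 males it was 1.40 (SE 0.42, adjusted p = 0.0847), and between males and BALB/c females 1.16 (SE 0.47, adjusted p = 0.194). The BALB/c values lay near the level of 3 counts in those libraries, 2.16, 1.97 and 2.97 CPM. Timm23 passed the filter on low counts through BWF1 females, where it was high, and not through BALB/c libraries. Its entry to the test thus depended on the group in which it was high, and its adjusted p is no support for a difference. The call is also limited by depth.

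Of 55 tested mitochondrial ribosomal proteins, which translate the subunits encoded in mitochondrial DNA, only Mrps26 was called. It was lower in BWF1 males than in BALB/c females with a fitted log2 difference of -1.16 (SE 0.31, adjusted p = 0.0354 by edgeR). The call was lost without any 1 of the 3 males (adjusted p = 0.0567, 0.103 and 0.0689 without male 1, 2 and 3), and without BALB/c female 2 or 3 (0.144 and 0.184). The list's medians were -0.09, 0.01 and 0.07. Its lowest p elsewhere belonged to Mrpl58 in females against males (-1.17, edgeR adjusted p = 0.142) and Mrpl24 in BWF1 females against BALB/c females (0.94, edgeR adjusted p = 0.0763).

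Cytosolic ribosomal proteins, another large set of abundant housekeeping genes, differed from this. Of 83 tested, 10 were lower in BWF1 females than in BWF1 males and 0 higher, with a median of -0.35, and 12 were higher in BWF1 males than in BALB/c females and 0 lower, with a median of 0.37. Without BWF1 male 1 these counts were 4 and 4. With library size alone they were 0 and 0, and the second median turned to -0.17, which is 0.27 above that of all genes. Between BWF1 females and BALB/c females, Rps2 was higher and Rps27 lower, the latter not without BWF1 male 2 or 3, any 1 BWF1 female, or BALB/c female 2 or 3 (edgeR adjusted p = 0.0580 to 0.328). That Rps27 call was also lost by DESeq2 (adjusted p = 0.0608) and under each other alternative except no filter. Rps27 read 395 ± 29.0 CPM in BWF1 females and 676 ± 38.1 in BWF1 males (n = 3; -0.77, SE 0.16, edgeR adjusted p = 0.00756, or 0.798 with library size alone). The members' medians in the same order of comparisons were -0.06 and 0.16. The difference between the 2 lists was not tested.

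By level over the 9 libraries, the genes outside the members most like their mean log2 CPM were Fau (Pearson r = 0.951), Hcls1 (0.949) and Rpsa (0.948). These share libraries and scaling with the members, and all 3 were highest in BWF1 male 1, as the members were. Without that library, r was 0.915 for Fau, 0.810 for Hcls1 and 0.845 for Rpsa over 8 libraries, and the 3 most alike genes were then Napsa (0.936), Nudt16l1 (0.934) and Vasp (0.926).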

How the data were processed

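The authors' deposited values were raw counts of reads per gene from 9 libraries, named as HTSeq output. The submitters' processing notes list FastQC 0.10.1, STAR 2.6 and mm10, with no roles. The annotation and strand setting are not given in the sources used here. Kits depleted ribosomal RNA, per the labels' protocols. Identifiers were named from GENCODE M21 on mm10, which held 21939 of 21965.

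The filter filterByExpr of edgeR 4.0.16 (R 4.3.3), with a minimum count of 10, left 7719 genes. All 9 libraries entered 1 quasi-likelihood fit with TMM scaling, with the Benjamini-Hochberg adjustment across these 7719. Calls are adjusted p under 0.05. CPM are TMM-scaled, and RPKM use the union of exons. A standard error is the size of a log2 fold change over the square root of F. DESeq2 1.42.0, other scalings, no filter, a replicate block, the file-name tag, the 2 groups alone and leaving out each library were alternatives. The fit was tested on simulated data with a fixed spread and planted changes larger than any tested member's. That test cannot show how well changes of the members' size are found. The exact intervals of shares cover counting error only, and reads carry no molecular identifiers. Intervals of log2 fold changes come from the fit, with the spread between replicates in them. A level of 3 counts in a library stood at 0.625 to 6.62 CPM. The chi-square per degree of freedom between replicates ran from 1.41 to 19.5, so no pair was treated as 1 library. The design text gives 3 mice per group, taken as 1 per library.

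Named genes are the member of lowest p per complex and comparison, the isoform families, the 5 highest per length, the called or lowest-p companions and the 3 genes of most alike level, chosen by a written rule, with exceptions stated. The members and lists were chosen with earlier results of these data known. 1 tested member is not reported here by name. The promoters of, among others, Atp5a1, Atp5mpl, Cox4i1, Cox4i2, Cox6c, Cox8c, Cyc1, Ndufa2, Ndufa4l2, Ndufaf6, Ndufb9, Ndufs1, Sdhc, Uqcrb, Uqcrc2 and Uqcrq were not used here.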

Additional observations from a re-analysis of the deposited data

How the results depend on the processing

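No member was called under any alternative run except with no filter on low counts. There, 1 was called in BWF1 females against BWF1 males (Cox6a1) and 1 in BWF1 males against BALB/c females (Ndufs5). The share of all genes called without the filter is not given here, so neither call can be set against it. With library size as the only scaling the members' median log2 fold change became 0.13, -0.17 and -0.33 in the 3 comparisons, where the median of all genes was 0.16, -0.29 and -0.44, so relative to it the members stood at -0.03, 0.12 and 0.12. The Cox6b1 value of BWF1 males against BALB/c females turned to -0.051 there, 0.39 above that median. Leaving out 1 library at a time gave medians from -0.15 to 0.051 in BWF1 females against BWF1 males, positive without BWF1 male 1, from 0.06 to 0.12 in BWF1 females against BALB/c females and from 0.08 to 0.20 in BWF1 males against BALB/c females. It gave 1 to 6, 2 to 8 and 0 to 9 members at an unadjusted p under 0.05. The complex I share of BWF1 females exceeded that of BALB/c females by 3.32 percentage points with members of over 25% shared words left out, against 2.72 with all members. Replicate numbers did not pair the libraries (correlations of same-numbered deviations -0.0912 to 0.0589 over 9 pairs), and a fit with the replicate number as a block called 0 members in each comparison, with medians of -0.07, 0.13 and 0.17. Rps27 was not called in BWF1 females against BALB/c females under most alternatives (edgeR adjusted p = 0.0539 with DESeq2 size factors and 0.0804 with the replicate block). Depth limits low members: the median tested member held 14 to 37 counts in 8 of the 9 libraries.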
